A study of Mus musculus with 14 samples.

Results

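The genes described here are 10 members of the tumor necrosis factor (TNF) system of the mouse, chosen by symbol from the gene list of the deposited matrices, where they are 10 of 55335 genes. They comprise 5 ligands (Tnf, Tnfsf8, Tnfsf9, Ltb and Tnfsf12), 3 receptors (Tnfrsf1a, Tnfrsf1b and Tnfrsf12a) and 2 inhibitors of the signal inside the cell (Tnfaip3 and Tnip1). All 10 symbols were found once each. The rule uses symbols only. Their levels were described by cell class and by group in single-cell RNA sequencing of whole spinal cord, in 14 libraries from 4 groups of mice of age P115-120 (days).

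The study asks what the myeloid receptor Clec7a does to the immune responses of microglia in mice that model amyotrophic lateral sclerosis (ALS), at a stage the submitters call mid-disease. The nTg group (3 libraries) has no other label and no strain named. The SOD1G93A group (3 libraries) is of strain B6SJL-Tg(SOD1*G93A)1Gur/J, which carries a human SOD1 transgene with an ALS mutation. The Clec7a-KO group (4 libraries) is of strain B6.129S6-Clec7atm1Gdb/J, a targeted knockout of the gene in all cells, and the SOD1G93A/Clec7a-KO group (4 libraries) carries both alleles. The strain backgrounds named for the transgene and for the deletion differ, so strain and genotype cannot be told apart. The labels do not say how many mice went into a library, so each p-value measures the spread between these libraries.

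TNF family ligands are mostly membrane proteins that act as trimers on receptors of neighbouring cells, and some, Tnf among them, are also shed into the surrounding fluid. Receptor engagement recruits adaptor proteins and, through NF-kappaB and stress kinases, turns on inflammatory and survival genes; Tnfaip3 and Tnip1, themselves among these genes, edit or bind ubiquitin chains and damp the signal. In the central nervous system microglia are the best known source of Tnf, and the receptors of Tnf differ in reach, Tnfrsf1a being made by many cell types and Tnfrsf1b mainly by immune and endothelial cells.

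Tnf lies at chr17:35199381-35202007 on the minus strand and Ltb at chr17:35194439-35196320 on the plus strand, 3060 bases apart (GRCm38, GENCODE annotation). Tnfrsf1a lies on chromosome 6, at 4.1 Mb from Clec7a, the deleted gene. Tnfsf9 overlaps the antisense gene Gm11110, Tnip1 overlaps Gm12230, Ltb overlaps Mir6973a, and Tnfsf12 overlaps Tnfsf13os and the readthrough gene Tnfsfm13. The strand setting of the counting is not given in the sources used here, so values of these 4 genes may hold reads of their neighbours.

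Promoter sequences (250 bases before to 50 bases after an annotated start, RefSeq, GRCm38.p6) were on hand for 8 of the 10 genes, not for Tnfsf9 and Tnfsf12. They are shown for Tnf, for 2 ligands called in microglia (Tnfsf8 and Ltb), for the inhibitors and for Tnfrsf12a, because NF-kappaB sites are a known feature of TNF-responsive promoters. The NF-kappaB consensus and the AP-1 motif TGANTCA were searched on both strands; matches are in capitals. Of 32841 promoter windows of the same length, 4.51% held the NF-kappaB consensus and 7.81% the AP-1 motif. The Tnf window is chr17:35201958-35202257 on the minus strand, the Tnfsf8 window chr4:63861235-63861534 on the minus strand, and the Ltb window chr17:35194257-35194556 on the plus strand. The Tnfaip3 window, at the more upstream of its 2 annotated starts, is chr10:19015361-19015660 on the minus strand. The Tnip1 window is chr11:54962891-54963190 on the minus strand, and the Tnfrsf12a window chr17:23677400-23677699 on the minus strand.
Tnf: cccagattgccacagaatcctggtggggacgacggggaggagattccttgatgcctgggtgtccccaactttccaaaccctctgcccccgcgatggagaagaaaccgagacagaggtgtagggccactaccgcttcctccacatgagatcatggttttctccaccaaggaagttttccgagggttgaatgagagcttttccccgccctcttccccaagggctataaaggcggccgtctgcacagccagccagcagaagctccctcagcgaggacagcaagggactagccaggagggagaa
Tnfsf8: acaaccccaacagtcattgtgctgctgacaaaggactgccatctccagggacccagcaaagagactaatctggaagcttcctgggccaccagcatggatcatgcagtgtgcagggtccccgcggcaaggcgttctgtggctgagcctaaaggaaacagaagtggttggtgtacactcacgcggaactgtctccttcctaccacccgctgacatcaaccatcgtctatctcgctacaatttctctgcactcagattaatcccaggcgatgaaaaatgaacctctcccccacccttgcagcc
Ltb: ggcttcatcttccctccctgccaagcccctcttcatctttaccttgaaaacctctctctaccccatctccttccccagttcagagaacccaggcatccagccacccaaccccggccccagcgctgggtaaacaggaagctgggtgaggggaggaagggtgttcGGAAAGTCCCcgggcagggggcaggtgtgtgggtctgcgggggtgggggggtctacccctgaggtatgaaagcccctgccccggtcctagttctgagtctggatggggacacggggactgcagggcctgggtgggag
Tnfaip3: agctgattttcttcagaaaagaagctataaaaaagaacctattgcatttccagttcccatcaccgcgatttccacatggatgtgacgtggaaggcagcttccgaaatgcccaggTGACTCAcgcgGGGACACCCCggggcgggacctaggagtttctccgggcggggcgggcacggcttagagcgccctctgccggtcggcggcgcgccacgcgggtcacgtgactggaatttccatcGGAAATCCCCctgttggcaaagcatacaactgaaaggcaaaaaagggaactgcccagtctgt
Tnip1: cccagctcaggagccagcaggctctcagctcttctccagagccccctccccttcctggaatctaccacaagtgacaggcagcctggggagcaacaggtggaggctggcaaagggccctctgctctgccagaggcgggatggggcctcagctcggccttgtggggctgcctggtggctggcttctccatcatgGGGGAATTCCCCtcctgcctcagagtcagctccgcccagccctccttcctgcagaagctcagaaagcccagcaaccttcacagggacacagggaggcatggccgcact
Tnfrsf12a: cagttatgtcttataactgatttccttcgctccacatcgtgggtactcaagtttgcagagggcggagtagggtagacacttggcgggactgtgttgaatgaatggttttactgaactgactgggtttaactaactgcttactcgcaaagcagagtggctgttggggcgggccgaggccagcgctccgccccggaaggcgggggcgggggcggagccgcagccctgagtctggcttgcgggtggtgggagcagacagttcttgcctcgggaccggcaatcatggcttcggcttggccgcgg
The consensus was found in 3 of the 8 genes with a window, and the Tnf, Tnfsf8 and Tnfrsf12a windows printed here held neither motif. Ltb held 1 match, 87 bases before the start. The printed Tnfaip3 window held 2, at 125 and 12 bases before the start, and the only AP-1 match, at 136 bases before it. The other Tnfaip3 window, not printed, held neither motif. The background shares above count windows, whereas the count of genes takes any window of a gene. Tnip1 held 3 overlapping matches at 58, 57 and 56 bases before the start, which print as 1 run of capitals. A match describes letters, not a bound site, and the windows without a match show only that these letters are absent from them.

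After filtering, 89755 of 108892 barcodes were kept, with 3096 to 12367 barcodes and 28819852 to 141204910 unique molecular identifiers (UMIs) per library. Clusters were named from marker lists: 52399 microglia, 11573 endothelial cells, 7658 ependymal cells, 5840 astrocytes, 3908 oligodendrocyte precursors (OPC), 1723 mural cells, 1265 neurons, 742 T or NK cells and 655 border macrophages, with 3781 cells in 1 cluster that carried both endothelial and mural markers and stayed unnamed. The border macrophage cluster held Pf4 and Mrc1 among its 10 leading genes, but the first 4 were the antigen-presentation genes Cd74, H2-Aa, H2-Eb1 and H2-Ab1, so dendritic cells, which also carry these, cannot be told apart from it here. Any 2 libraries shared 2 to 44 cell barcodes. Clec7a in microglia was 28.8 to 84 CPM (counts of UMIs per 1000000) in nTg, 885 to 1037 in SOD1G93A, and 0.739 to 3.76 in the 8 libraries with the deletion. Reads counted as Sod1 were 1615 to 3209 CPM in microglia of the 7 transgene libraries and 36.6 to 92.1 in the other 7, as labelled. Xist exceeded Ddx3y, a Y-linked gene, in 2 of 3 nTg, 1 of 4 Clec7a-KO, 0 of 3 SOD1G93A and 1 of 4 SOD1G93A/Clec7a-KO libraries, so sex was not balanced between groups. Microglia made up 35.8% of cells in nTg, 44.1% in Clec7a-KO, 68.4% in SOD1G93A and 72.8% in SOD1G93A/Clec7a-KO, and the class was held by different clusters with and without the transgene. Clec7a-KO replicate 4 and SOD1G93A/Clec7a-KO replicates 3 and 4, numbered 16, 13 and 15 among the submitters' files, stood apart for several members and are named where they bear on a value. Astrocyte, ependymal, OPC and neuron markers led clusters of their own, as the tissue label would have it, and no cluster was named for mature oligodendrocytes.

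Levels by cell class are given as CPM, the UMIs of a gene per 1000000 UMIs of that class in a library after TMM scaling, as mean ± SD over libraries with at least 20 cells of the class (n = 10 to 14). The classes were formed from the same cells, so their order is a description without a test. CPM counts 3′ ends and is compared here only within a gene. Tnf, the founding cytokine of the family, was highest in microglia at 1309 ± 872 CPM (n = 14), followed by border macrophages at 499 ± 341 (n = 13), which were below microglia in all 13 libraries. T or NK cells stood at 154 ± 144 CPM (n = 10), and the remaining classes fell between 12.5 (OPC) and 60.9 CPM (neurons), with neighbouring classes overlapping. The T or NK mean pools libraries from 25.1 to 423 CPM, with a mean of 55.1 in SOD1G93A. The highest were those of SOD1G93A/Clec7a-KO, where microglial markers in this class were also higher, as given below. The part of microglial RNA in T or NK Tnf was not tested. The neuron mean pools 3.76 CPM in nTg and 152 in SOD1G93A. Clec7a in the same neurons was 0 CPM in nTg and 11.9 to 133 in SOD1G93A. The part of microglial RNA in neuron Tnf was not tested. Microglia held 98.5% of all Tnf UMIs in nTg and 99.3% in SOD1G93A libraries.

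Tnfsf8, the ligand of the receptor Tnfrsf8, had its highest mean in T or NK cells, at 22 ± 14.6 CPM (n = 10), and the next in microglia, at 11.7 ± 8.66 CPM (n = 14). T or NK cells were the higher of the pair in only 5 of 10 libraries. The 2 means pool unlike libraries, since no nTg library entered the T or NK mean. In SOD1G93A they were 21 CPM in T or NK cells and 20.8 in microglia. Tnfsf8 was 5.3 CPM in border macrophages and at most 1.46 CPM elsewhere, and no UMI was found in mural cells. Tnfsf9, the ligand of the T-cell costimulatory receptor Tnfrsf9, had like means in microglia (193 ± 222 CPM) and border macrophages (183 ± 130 CPM), but their order turned with the transgene. Border macrophages were higher in 6 of 6 libraries without it and microglia in 7 of 7 with it. The other classes ranged from 1.79 CPM in endothelial cells to 27 in T or NK cells, with OPC at 15.9 ± 6.94.

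Ltb, which with lymphotoxin alpha forms the ligand of Ltbr, was a T or NK cell transcript, at 658 ± 353 CPM (n = 10) against 25.8 ± 34.2 in border macrophages and 3.56 ± 2.49 in microglia. T or NK cells held 24.9% of all Ltb UMIs in nTg and microglia 58.2%, whereas in SOD1G93A the shares were 71.4% and 23.4%. Tnfsf12 (TWEAK), the ligand of Tnfrsf12a, had its highest means in vascular classes, with 141 ± 44.4 CPM in mural and 126 ± 30.8 in endothelial cells, mural cells being higher in 11 of 14 libraries. Border macrophages (97 ± 39.2), microglia (79 ± 32.3) and OPC (71.9 ± 15.7) had lower means but overlapped the vascular ranges, and ependymal cells were lowest at 7.83 ± 2.34. Microglia held 29.9% of Tnfsf12 UMIs in nTg and 79% in SOD1G93A, and endothelial cells 33.1% and 9.82%. These Ltb and Tnfsf12 shares depend on the cells recovered as well as on CPM. From nTg to SOD1G93A, microglia went from 6109 to 15660 cells, T or NK cells from 42 to 265 and endothelial cells from 3036 to 2417. Endothelial Tnfsf12 was 111 CPM in nTg and 114 in SOD1G93A.

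Among the receptors, Tnfrsf1a was spread over glial and vascular classes. Astrocytes (181 ± 111 CPM) and mural cells (176 ± 83.5) had like means, but mural cells were higher in 7 of 7 libraries without the transgene and astrocytes in 6 of 7 with it. Border macrophages (151 ± 47.6), microglia (127 ± 41.3) and OPC (95.5 ± 54.8) followed with overlapping ranges. Neurons were lowest at 8.73 ± 7.48 CPM. Tnfrsf1b was highest in immune classes: 89.6 ± 31 CPM in T or NK cells, 78.7 ± 26 in border macrophages and 60.9 ± 8.36 in microglia, overlapping, then 11.8 ± 3.71 in endothelial cells, below microglia in 14 of 14 libraries. Tnfrsf12a, the TWEAK receptor, had its highest mean in astrocytes, 141 ± 149 CPM, a mean over libraries from 8.57 to 416 CPM. Astrocytes were above endothelial cells in 7 of 7 transgene libraries and below them in 7 of 7 others, and in nTg the means were 9.42 CPM in astrocytes and 65.7 in endothelial cells. Over all libraries it was 69.7 ± 26.8 CPM in endothelial cells and 48 ± 11.9 in microglia, which were lower than endothelial cells in 13 of 14 libraries.

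Tnfaip3, a ubiquitin-editing brake on NF-kappaB, was as high in T or NK cells (497 ± 144 CPM) as in microglia (482 ± 165), T or NK cells leading in 6 of 10 libraries. It was 261 ± 106 CPM in border macrophages and between 8.32 and 26.2 in the other classes. Tnip1, a ubiquitin-binding partner of Tnfaip3, varied little: its class means ran from 10.1 CPM in ependymal cells to 43.2 in T or NK cells, with border macrophages (25.1), microglia (22.8) and endothelial cells (22.1) overlapping.

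**Figure D1:**
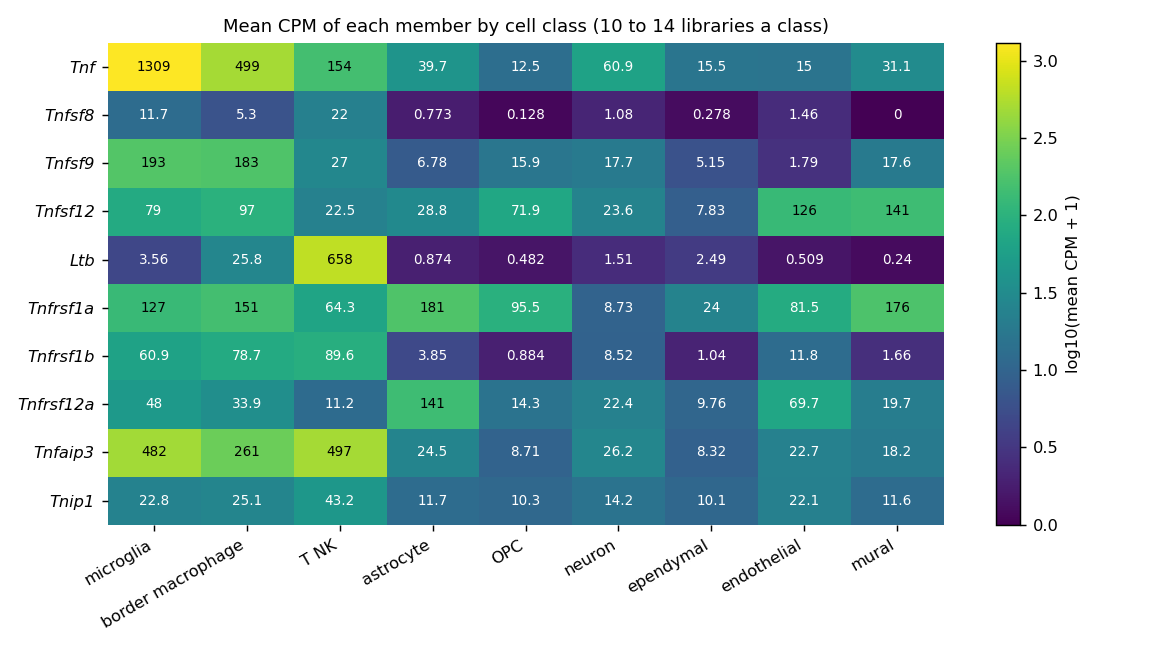
Mean CPM of each of the 10 genes (rows) in 9 cell classes (columns), over 10 to 14 libraries a class; colour is log10 of mean CPM plus 1 and the number is the mean CPM. Tnf, Tnfsf9 and Tnfaip3 are highest in immune classes, Ltb in T or NK cells (658), Tnfsf12 in mural (141) and endothelial cells (126), and Tnfrsf12a in astrocytes (141), where it exceeds endothelial cells only in the 7 transgene libraries.

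In microglia, UMIs were summed per library and compared between groups with edgeR's quasi-likelihood test, with Benjamini-Hochberg adjustment over all 16769 genes that passed the filter on low counts; all 10 genes passed it. A gene was called at an adjusted p under 0.05. With SOD1G93A against nTg, Tnfsf8, Tnfsf9 and Tnip1 rose and Ltb fell. With SOD1G93A/Clec7a-KO against Clec7a-KO, the same transgene comparison without Clec7a, Tnfsf8, Tnfsf9, Tnip1 and Tnfsf12 rose and Ltb fell. The first count, 4 of 10 genes, stands beside 33.5% of all genes called in that comparison (20.1% higher, 13.5% lower), and the second, 5 of 10, beside 46.6% (25.7% higher, 20.9% lower). The median log2 fold change of the 10 genes was 0.67 in the first comparison and 0.58 in the second, and that of all genes tested 0.01 and 0.00. Both counts are close to these shares of all genes, and nothing about the members as a set is read from them.

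Tnfsf8 had the largest log2 fold change of the 10 genes with SOD1G93A against nTg in the main fit. Over the alternative fits it reached at most 2.92 and Tnfsf9 up to 3.49, so their order is not fixed. The value of 3.49 came with the submitters' library number as a covariate, which was lower in every SOD1G93A than in every nTg library. Tnfsf8 was 2.68, 3.34 and 3.36 CPM in nTg microglia and 13.6, 24.8 and 24 in SOD1G93A. In Clec7a-KO it was 3.1, 5.36, 4.83 and 4.21 CPM, and in SOD1G93A/Clec7a-KO 16.7, 21.4, 18.9 and 17.8. Every transgene library was above every library without it. The log2 fold change was 2.75 ± 0.25 (SE) for SOD1G93A against nTg, with an edgeR adjusted p of 2.53e-06, and 2.10 ± 0.21 within the deletion, with an adjusted p of 3.27e-06.

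Tnfsf9 was 49.1, 36.9 and 45.7 CPM in nTg and 137, 416 and 253 in SOD1G93A, with no overlap. In Clec7a-KO it was 36.4, 51.3, 34.1 and 112 CPM and in SOD1G93A/Clec7a-KO 134, 107, 555 and 740. Here the groups overlapped, because Clec7a-KO replicate 4, at 112 CPM, was above SOD1G93A/Clec7a-KO replicate 2, at 107. The log2 fold change was 2.61 ± 0.69 (edgeR adjusted p 0.00965) and 2.72 ± 0.60 (0.00209). Without Clec7a-KO replicate 4 and SOD1G93A/Clec7a-KO replicates 3 and 4 the second value was 1.57, with an adjusted p of 0.00399.

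Ltb moved the other way. It was 9.29, 5.64 and 4.4 CPM in nTg microglia and 1.88, 2.11 and 1.65 in SOD1G93A. It was 4.32, 3.13, 2.85 and 7.88 CPM in Clec7a-KO and 1.78, 1.79, 1.69 and 1.44 in SOD1G93A/Clec7a-KO. The groups did not overlap in either comparison, and the log2 fold change was -1.79 ± 0.35 (edgeR adjusted p 0.00136) and -1.41 ± 0.31 (0.00198). The level was low throughout, and T or NK cells carried Ltb at a far higher CPM (658). The summed CPM of 10 T or NK markers in microglia was 0.226 to 10.1 without the transgene and 1.22 to 2.38 with it, and the part of this in the Ltb difference was not tested.

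Tnf itself was not called in either comparison. It was 816, 662 and 762 CPM in nTg and 998, 2188 and 1609 in SOD1G93A, where the lowest SOD1G93A library was above the highest nTg library. It was 570, 832, 584 and 1752 CPM in Clec7a-KO and 667, 1027, 2325 and 3535 in SOD1G93A/Clec7a-KO, and these overlapped. The log2 fold change was 1.10 ± 0.55 (edgeR adjusted p 0.134) and 1.01 ± 0.47 (0.0899). The libraries that stood apart widened the spread: without Clec7a-KO replicate 4 and SOD1G93A/Clec7a-KO replicates 3 and 4 the first value was 1.11 with an adjusted p of 0.00676 and the second 0.37 with an adjusted p of 0.337. Leaving out Clec7a-KO replicate 4 alone gave 1.51 (adjusted p 0.0161) in the second comparison, and leaving out SOD1G93A/Clec7a-KO replicate 1 alone gave 1.29 (0.025). With the replicate number as a block the values were 1.01 (0.0334) and 0.94 (0.0188).

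Tnfsf12 was 42.7, 54.2 and 51.6 CPM in nTg and 91.8, 72.7 and 64.9 in SOD1G93A, without overlap. In Clec7a-KO it was 56.2, 54, 52.7 and 98.3 CPM and in SOD1G93A/Clec7a-KO 92.6, 90.7, 139 and 144. The log2 fold change was 0.63 ± 0.25 (edgeR adjusted p 0.0711) in the first comparison and 0.84 ± 0.22 (0.00663) in the second, where Clec7a-KO replicate 4 overlapped the transgene libraries. The first comparison was called without Clec7a-KO replicate 4 (adjusted p 0.0242), without all 3 libraries that stood apart (0.00292) and with the replicate block (0.0226).

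**Figure D2:**
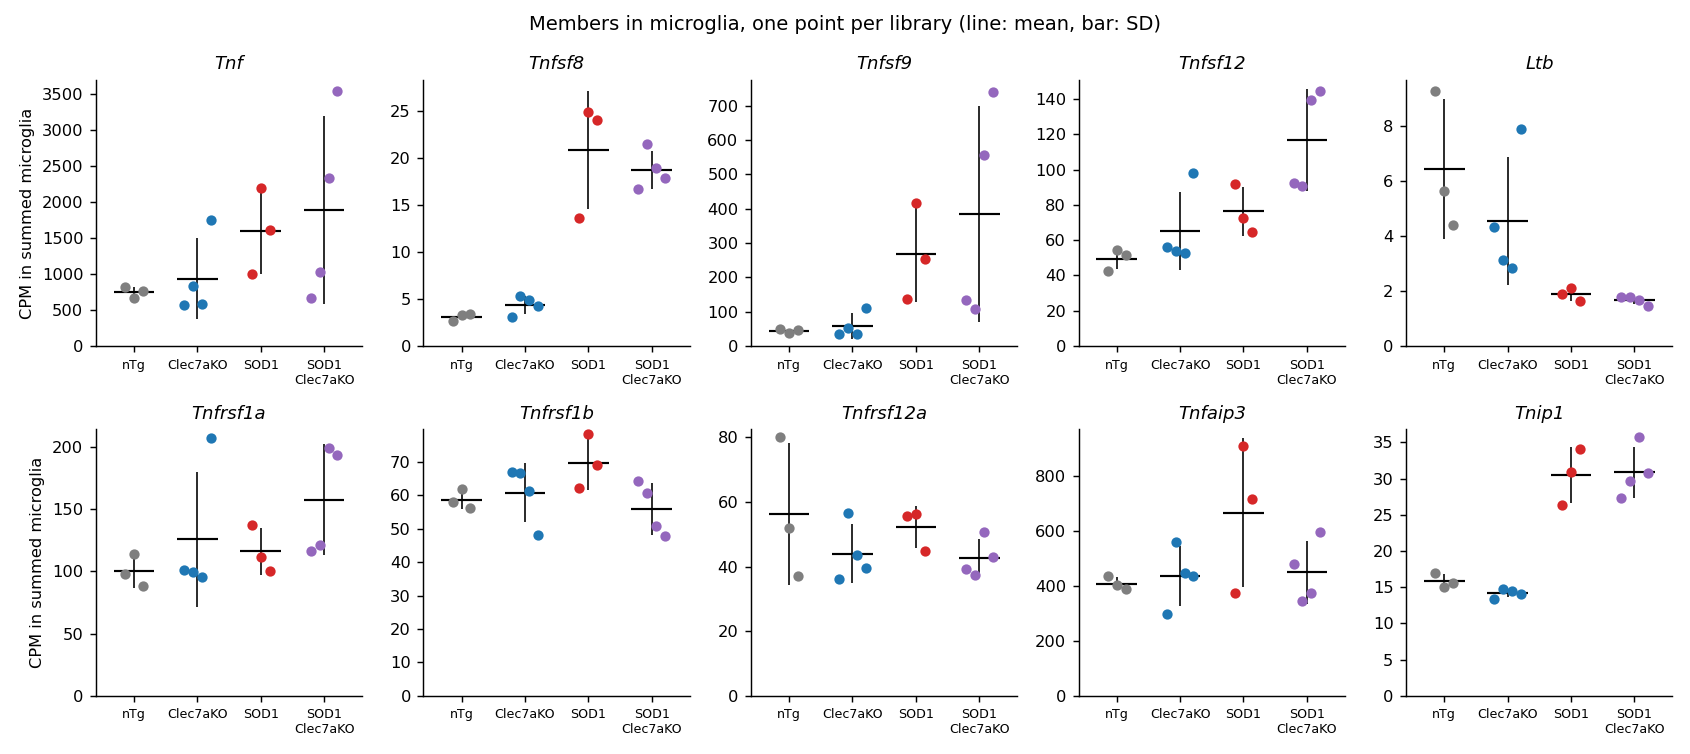
CPM of each of the 10 genes in summed microglia, 1 point per library, by group (3, 4, 3 and 4 libraries); the line is the mean and the bar the SD. Tnfsf8 and Tnip1 separate the transgene libraries from all others, Ltb is lowest in them, and single Clec7a-KO and SOD1G93A/Clec7a-KO libraries stand high for Tnf, Tnfsf9, Tnfsf12 and Tnfrsf1a.

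None of the 3 receptors was called in microglia in either transgene comparison. Tnfrsf1a, the main receptor for soluble Tnf, was 97.5, 114 and 88.2 CPM in nTg and 137, 111 and 100 in SOD1G93A, which overlapped. It was 101, 99.5, 95.4 and 207 CPM in Clec7a-KO and 116, 121, 199 and 193 in SOD1G93A/Clec7a-KO. The 3 libraries that stood apart had 193 to 207 CPM and the other 11 had 88.2 to 137. The log2 fold change was 0.22 ± 0.29 (edgeR adjusted p 0.603) and 0.32 ± 0.25 (0.31), and without Clec7a-KO replicate 4 the second was 0.67 with an adjusted p of 0.0134.

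Tnfrsf1b, which binds membrane-bound Tnf best, was 58, 61.8 and 56.3 CPM in nTg and 62.2, 78.2 and 68.9 in SOD1G93A; these did not overlap, but the log2 fold change was 0.25 ± 0.15 (edgeR adjusted p 0.231). In Clec7a-KO it was 66.9, 66.7, 61.3 and 48.1 CPM and in SOD1G93A/Clec7a-KO 64.1, 60.7, 50.8 and 48, with a log2 fold change of -0.12 ± 0.13. The 3 libraries that stood apart were the lowest here, at 48 to 50.8 CPM against 56.3 to 78.2 in the other 11. Tnfrsf12a was 36.9 to 80.2 CPM in nTg, 44.8 to 56.3 in SOD1G93A, 36.1 to 56.7 in Clec7a-KO and 37.5 to 50.8 in SOD1G93A/Clec7a-KO, and its log2 fold changes were -0.11 ± 0.24 and -0.05 ± 0.21.

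The inhibitors differed from each other. Tnip1 was 17, 15 and 15.5 CPM in nTg and 26.4, 30.9 and 34 in SOD1G93A. It was 13.4, 14.8, 14.5 and 14.1 CPM in Clec7a-KO and 27.3, 29.7, 35.7 and 30.7 in SOD1G93A/Clec7a-KO. No transgene library overlapped a library without it, and the log2 fold change was 0.94 ± 0.13 (edgeR adjusted p 0.000132) and 1.12 ± 0.12 (4.7e-06). Tnfaip3 was 435, 401 and 387 CPM in nTg, and 373, 907 and 716 in SOD1G93A, where replicate 1 made the groups overlap. It was 295 to 559 CPM in Clec7a-KO and 345 to 597 in SOD1G93A/Clec7a-KO. Its log2 fold change was 0.71 ± 0.30 (edgeR adjusted p 0.0832) and 0.05 ± 0.26, and without SOD1G93A replicate 1 the first was 0.93 with an adjusted p of 0.0192.

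Libraries did not overlap for 7 of the 10 genes in the first comparison and for 3 of 10 in the second, beside 54.2% and 36.6% of all genes tested. The 9 calls in microglia (4 and 5) kept their call in each of 26 alternative fits. Other measures moved with the transgene in the same microglia. The summed CPM of 22 genes induced by tissue dissociation was 40252 to 54269 without the transgene and 16588 to 21213 with it, and 9 and 14 of the 22 were called lower in the 2 comparisons, none higher. The summed CPM of 8 border macrophage markers was 1.25 to 6.18 without it and 40.3 to 96.1 with it, and that of 8 monocyte and dendritic markers 7.99 to 35.3 and 164 to 252. The marker sums were not split by gene, so they do not tell other cell types from genes that microglia themselves carry. The part of the dissociation genes and of these markers in the members' differences was not tested.

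**Figure D3:**
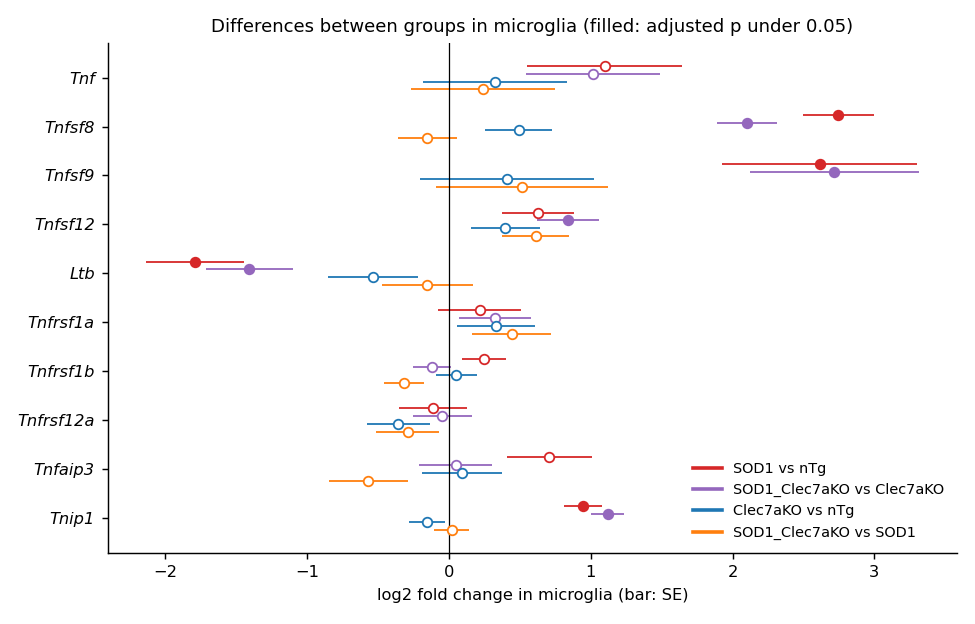
Log2 fold change in microglia (x axis) of the 10 genes in 4 comparisons; the bar is the SE and filled points have an edgeR adjusted p under 0.05. Tnfsf8, Tnfsf9, Tnip1 and Ltb are filled in both transgene comparisons and Tnfsf12 in the one within Clec7a-KO, and no point of the 2 Clec7a comparisons is filled.

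In microglia the comparisons between groups with and without Clec7a gave no call among the members. SOD1G93A/Clec7a-KO against SOD1G93A called 0 of 10 genes (2 at an unadjusted p under 0.05, 0 by DESeq2), beside 0.0179% of all genes. The members nearest to a call were Tnfsf12, at a log2 fold change of 0.61 ± 0.24, and Tnfrsf1b, at -0.32 ± 0.14, both with an edgeR adjusted p of 0.447, and Tnfaip3, at -0.57 ± 0.28 (0.458). In the same comparison Tnfsf8 was at -0.15 ± 0.21, Ltb at -0.15 ± 0.32, Tnip1 at 0.02 ± 0.12 and Tnf at 0.24 ± 0.51. The Tnf value gives no direction: it changed sign in 5 of 26 alternatives, from -0.91 without the 3 libraries that stood apart to 0.54 without SOD1G93A replicate 2, and Tnip1 did so in 6 of 26. Clec7a-KO against nTg also called 0 of 10 (0 at an unadjusted p under 0.05, 0 by DESeq2), beside 0.0298% of all genes, with Tnfsf8 at 0.49 ± 0.24 and Ltb at -0.53 ± 0.32. The interaction, which asks whether the transgene difference itself depends on Clec7a, called 0 of 10 (0 at an unadjusted p under 0.05, 0 by DESeq2), beside 0% of all genes. Its estimates were -0.64 ± 0.32 for Tnfsf8, -0.66 ± 0.40 for Tnfaip3 and -0.08 ± 0.71 for Tnf, which changed sign in 4 of 25 alternatives. The 4 comparisons share libraries, so their values stand side by side and are not independent.

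The share of microglia with at least 1 UMI was taken after each cell was thinned to 2000 UMIs, with cells under 2000 UMIs left out. At low levels this share rises with the mean level, so it does not tell more cells from more transcript per cell. Tnf was found in 58.2% ± 6.07 (SD, n = 3) of nTg, 57.5% ± 11.7 (n = 4) of Clec7a-KO, 65% ± 12.1 (n = 3) of SOD1G93A and 60.3% ± 13.7 (n = 4) of SOD1G93A/Clec7a-KO microglia, which overlapped. Tnfsf9 was found in 7.23% ± 1.61, 7.49% ± 3.08, 23.9% ± 9.42 and 25.8% ± 15.4 in the same order. Tnfsf8 was found in 0.756% ± 0.109, 0.795% ± 0.168, 3.59% ± 0.82 and 2.99% ± 0.492, and Ltb in 1.42% ± 1.2, 1.16% ± 0.353, 0.377% ± 0.0444 and 0.335% ± 0.0425. In exact permutation tests the smallest p is 0.1 for 3 against 3 libraries, 0.0571 for 3 against 4 and 0.0286 for 4 against 4. With 40 such tests of these shares adjusted together, none could reach an adjusted p under 0.05. That 0 did so was fixed in advance, and no conclusion is drawn from it. The 4 against 4 tests reached their smallest p, 0.0286 (adjusted 0.286), for Tnfsf8, Ltb and Tnip1 within the deletion. Unthinned, Tnf was found in 74.6% of nTg and 84.1% of SOD1G93A microglia and Tnfsf8 in 3.12% and 20.1%, at median depths of 8682 and 14143 UMIs per cell. As a background, 0.51% of nTg and 3.09% of SOD1G93A ependymal cells had a Tnf UMI after thinning, and 0.355% and 0.873% a Tnfsf9 UMI, at median depths of 9713.5 and 8623. For Tnfsf8 the share was at most 0.0616% in ependymal cells and 0.094% in OPC of any group, at median depths of 6174 to 9713.5 and 5898.5 to 10612. For Ltb the ependymal share was 0.378% in nTg and 0.629% in SOD1G93A. The Ltb share of SOD1G93A microglia was thus not above that of ependymal cells and is not read as expression. Ependymal cells are a high background for Ltb. In SOD1G93A its mean was 4.03 CPM in ependymal cells, 1.88 in microglia, 0.683 in OPC, 0.604 in endothelial cells and 0.426 in astrocytes.

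Microglia were also clustered without the members and the other TNF pathway genes, which left 52366 of the 52399 cells in the class. Tnf differed between clusters. In SOD1G93A its mean over libraries was 2192 CPM in cluster 1, led by Spp1 and Cxcl2, 1601 in cluster 10, led by the cell-division genes Mki67 and Top2a, and 1558 in cluster 0, led by the chemokines Ccl4 and Ccl3. It was 919 and 474 CPM in clusters 2 and 3, both led by the homeostatic genes Cx3cr1 and P2ry12, 552 in cluster 5, led by Spp1 and Gpnmb, and 98.6 in cluster 4, led by C1qa and Ly86. In nTg it was 2694 CPM in cluster 0, 955, 660 and 953 in the homeostatic clusters 2, 3 and 21, and 28 in cluster 4; clusters 1, 5 and 10 had enough cells only in the 7 transgene libraries. Cluster 4 was lowest in both groups, and its cells had a median of 0.362 times the UMIs of their own libraries. Clusters 0, 1 and 5 held 41%, 22.9% and 21.2% of microglial UMIs in SOD1G93A and 1.74%, 0.531% and 0.351% in nTg. In SOD1G93A/Clec7a-KO they held 38.4%, 4.14% and 42.6%, so the transgene groups also differed in cluster shares. Cluster 21 held 59.4% in nTg, 22.6% in Clec7a-KO and 0% in SOD1G93A. Xist was also among the 10 leading genes of cluster 21, and Xist exceeded Ddx3y in 2 of 3 nTg and 0 of 3 SOD1G93A libraries, so its share cannot be told apart from sex.

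Within a cluster the order of the groups differed between Tnf and Tnfsf8. In cluster 0, Tnf was 2694 ± 324 CPM in nTg (n = 2), 3058 ± 1032 in Clec7a-KO (n = 3), 1558 ± 213 in SOD1G93A (n = 3) and 1848 ± 927 in SOD1G93A/Clec7a-KO (n = 4), so the transgene groups were not the higher ones, although the nTg value rests on 67 cells. In cluster 2 the 4 means were 955, 1128, 919 and 1198 CPM. Tnfsf8 in cluster 2 was 1.64 and 3.86 CPM in the groups without the transgene and 19.1 ± 3.94 and 19.2 ± 3.99 in SOD1G93A and SOD1G93A/Clec7a-KO, and in cluster 0 it was 7.13, 2.25, 14.6 and 12.6. Of the Tnf UMIs of SOD1G93A microglia, 47% lay in cluster 0 and 33.5% in cluster 1, and of those of nTg 58% lay in cluster 21, the cluster with Xist among its leading genes. These values are descriptions without a test, and cluster sizes differed between groups.

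**Figure D4:**
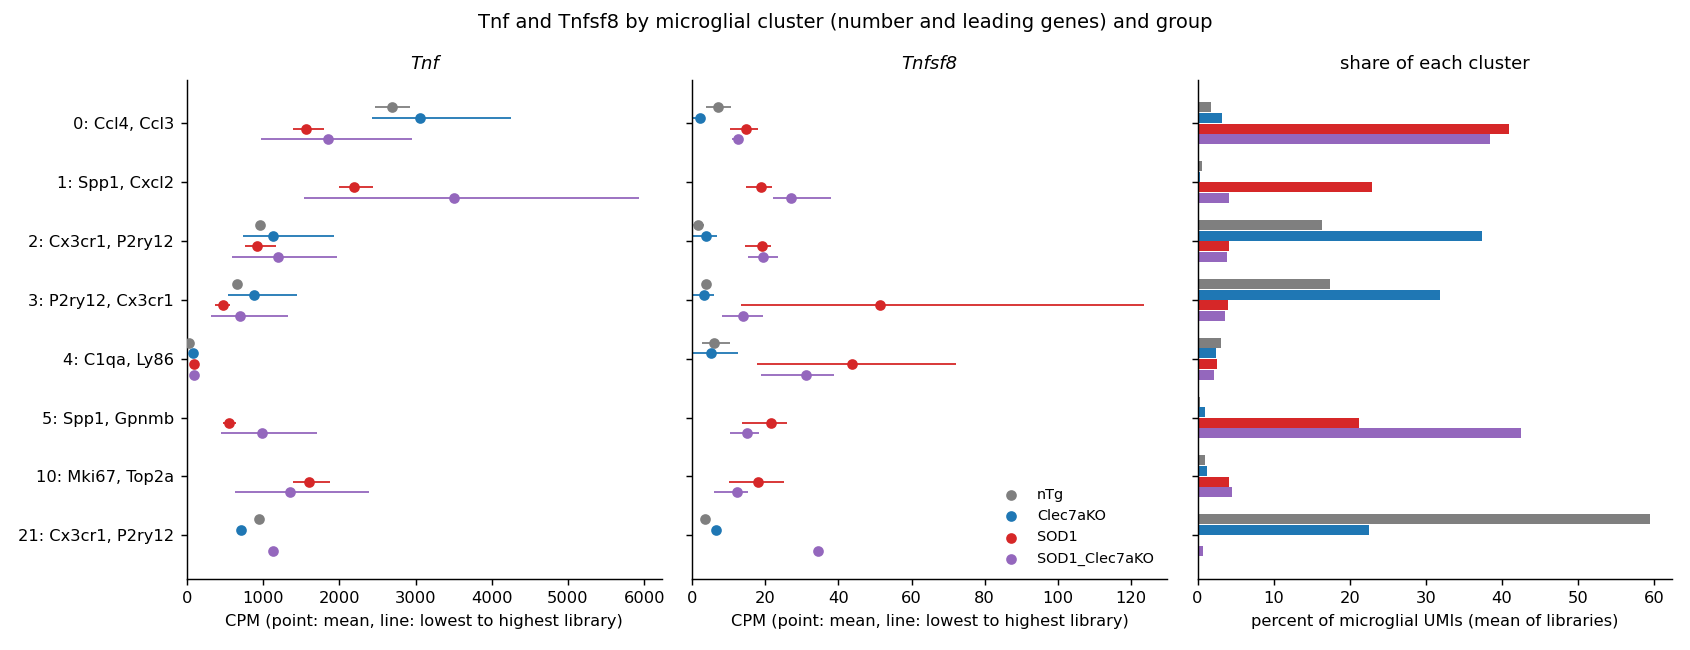
Tnf and Tnfsf8 CPM by microglial cluster and group (points, mean over libraries; lines, lowest to highest library), and the share of microglial UMIs in each cluster. In SOD1G93A, Tnf is 2192 CPM in cluster 1, 1601 in cluster 10 and 1558 in cluster 0, and clusters 1 and 0 hold 22.9% and 41% of UMIs; Tnfsf8 in cluster 2 is 19.1 and 19.2 CPM with the transgene and 1.64 and 3.86 without it.

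In astrocytes, the class with the widest range of Tnfrsf12a, 8 of the 10 genes passed the filter on low counts; Tnfsf8 and Ltb did not, with at most 13 UMIs in a library. Tnfrsf12a, Tnfrsf1a, Tnfaip3, Tnf, Tnfsf9 and Tnfrsf1b rose in both transgene comparisons, 6 of 8 genes tested, beside 17.2% and 18% of all 12899 genes called higher. A gene near 0 in one group passes the filter only through the other, so these counts are not read as support. In the same astrocytes 14 and 16 of the 22 dissociation genes were called higher and none lower, and their summed CPM was 910 to 1416 without the transgene and 1533 to 5264 with it; their part in the members' differences was not tested. The libraries of the 2 groups did not overlap for 6 of 8 in both, beside 48.6% and 24.8% of all genes.

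Tnfrsf12a was 8.82, 10.7 and 8.77 CPM in nTg astrocytes and 388, 239 and 267 in SOD1G93A. It was 26.4, 27.6, 8.57 and 9.87 CPM in Clec7a-KO and 215, 416, 235 and 119 in SOD1G93A/Clec7a-KO. Every transgene library was far above every library without it. The log2 fold change was 4.98 ± 0.43 (edgeR adjusted p 3.44e-07) and 3.76 ± 0.35 (9.16e-07). Astrocytes exceeded microglia of the same library in Tnfrsf12a in 7 of 7 transgene libraries and in 0 of 7 others. The thinned share of astrocytes with a Tnfrsf12a UMI was 1.61% ± 0.595 in nTg, 2.35% ± 0.77 in Clec7a-KO, 25.2% ± 4.27 in SOD1G93A and 29.4% ± 8.96 in SOD1G93A/Clec7a-KO, beside 1.27% in nTg and 1.58% in SOD1G93A ependymal cells; the median depths were 5527 and 3839 UMIs in nTg and SOD1G93A astrocytes and 9713.5 and 8623 in ependymal cells.

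Tnfrsf1a was 57.8, 65.8 and 84.7 CPM in nTg astrocytes and 236, 288 and 234 in SOD1G93A. It was 82.6, 75.2, 95.4 and 114 CPM in Clec7a-KO and 211, 290, 354 and 350 in SOD1G93A/Clec7a-KO. The groups did not overlap, and the log2 fold change was 1.86 ± 0.22 (edgeR adjusted p 9.03e-06) and 1.69 ± 0.19 (5.82e-06). The thinned share of astrocytes with a Tnfrsf1a UMI was 13.4% ± 5.04, 16.9% ± 2.11, 35.7% ± 2.63 and 41.2% ± 6.43 in nTg, Clec7a-KO, SOD1G93A and SOD1G93A/Clec7a-KO, beside 4.11%, 3.48%, 4.03% and 7.21% of ependymal cells.

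**Figure D5:**
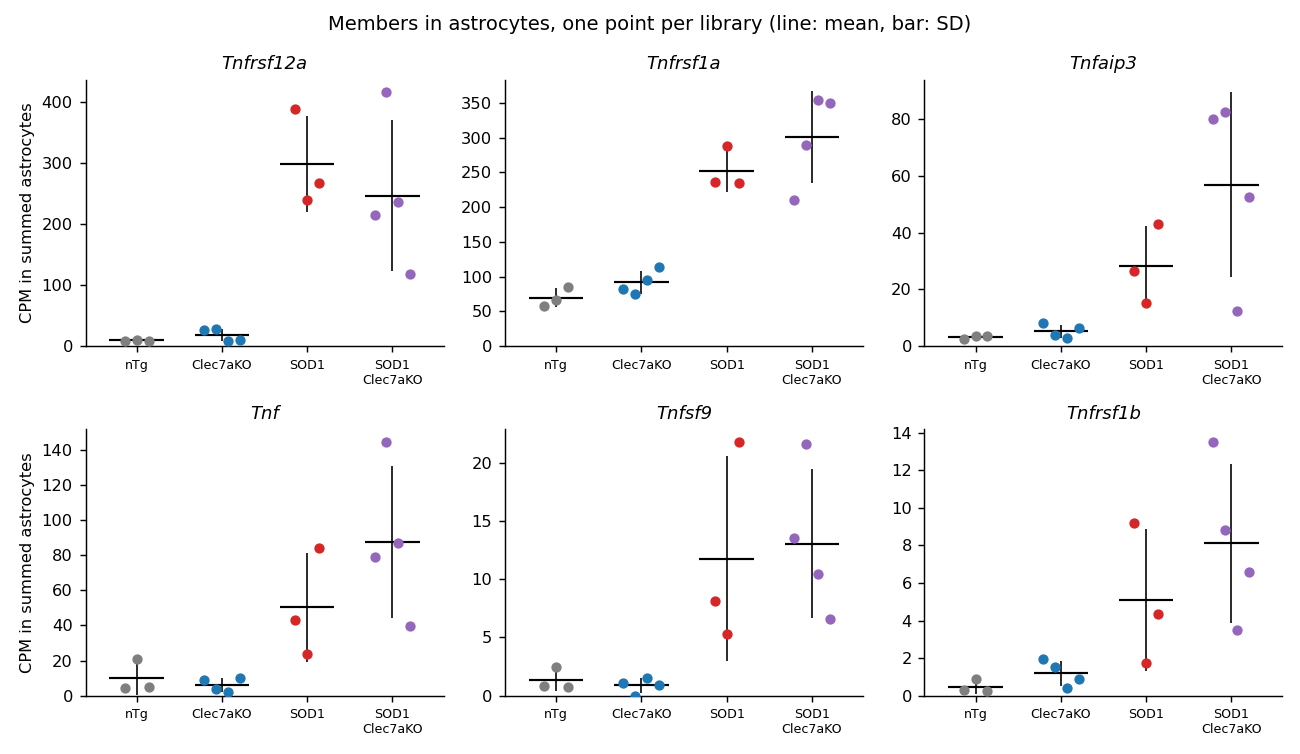
CPM of the 6 genes called in astrocytes, 1 point per library, by group (3, 4, 3 and 4 libraries); the line is the mean and the bar the SD. The transgene libraries hold 119 to 416 CPM of Tnfrsf12a against 8.57 to 27.6 in the others, and 211 to 354 against 57.8 to 114 for Tnfrsf1a.

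The other 4 genes were far lower in astrocytes than in microglia, and microglial markers moved with them. Tnfaip3 was 2.56 to 3.66 CPM in nTg, 2.73 to 7.96 in Clec7a-KO, 15 to 43.1 in SOD1G93A and 12.2 to 82.5 in SOD1G93A/Clec7a-KO, a log2 fold change of 3.18 ± 0.51 (edgeR adjusted p 0.000198) and 3.46 ± 0.43 (1.34e-05). Tnf was 4.55, 21 and 4.74 CPM in nTg, 42.9, 23.8 and 84.3 in SOD1G93A, 1.95 to 9.87 in Clec7a-KO and 39.6 to 144 in SOD1G93A/Clec7a-KO, a log2 fold change of 2.43 ± 0.53 (0.00202) and 3.93 ± 0.52 (2.18e-05). Without nTg replicate 2 the first Tnf value was 3.52, without SOD1G93A replicate 3 it was 1.75 (edgeR adjusted p 0.0462), and with Xist above Ddx3y as a covariate it was 1.44 (0.0356). Tnfsf9 was 0.853, 2.44 and 0.711 CPM in nTg, on 3, 8 and 3 UMIs, and 8.17, 5.3 and 21.8 in SOD1G93A (edgeR adjusted p 0.000425). Within the deletion it was 0 to 1.56 CPM in Clec7a-KO, on 0 to 6 UMIs, and 6.6 to 21.6 in SOD1G93A/Clec7a-KO, on 1 to 31 UMIs (8.98e-05). Tnfrsf1b was 0.237 to 0.915 CPM in nTg, on 1 to 3 UMIs, and 1.77 to 9.19 in SOD1G93A, on 2 to 11 UMIs (edgeR adjusted p 0.0026), a call lost with Xist above Ddx3y as a covariate (0.0501). It was 0.389 to 1.95 CPM in Clec7a-KO, on 1 to 11 UMIs, and 3.49 to 13.5 in SOD1G93A/Clec7a-KO, on 1 to 31 UMIs (0.00079). Both genes pass the filter through the transgene libraries, and with so few UMIs in the others the size of their rise is not given as a fold.

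The summed CPM of 12 microglial markers in astrocytes was 189 to 316 in nTg, 205 to 588 in Clec7a-KO, 807 to 2113 in SOD1G93A and 1368 to 4258 in SOD1G93A/Clec7a-KO, and 0 of the 12 markers were at 0. In SOD1G93A astrocytes these markers stood at 7.05% of their level in microglia of the same libraries. Tnf stood at 3.89%, Tnfsf9 at 5.81%, Tnfaip3 at 5.4% and Tnfrsf1b at 8.46%, above the markers in 0, 1, 1 and 2 of 3 libraries. Tnfrsf1a stood at 247% and Tnfrsf12a at 631%, above the markers in 3 of 3 libraries each. The part of microglial RNA in the first 4 was not tested. Tnfsf12, at -0.17 and 0.44, and Tnip1, at -0.08 and 0.25, were not called in astrocytes.

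In astrocytes, SOD1G93A/Clec7a-KO against SOD1G93A called 0 of 8 genes by edgeR (2 at an unadjusted p under 0.05, Tnfaip3 at 1.05 ± 0.41 and Tnfsf12 at 0.75 ± 0.27, and 0 by DESeq2), beside 0.0155% of all genes, with Tnfrsf12a at a log2 fold change of -0.20 ± 0.33 and Tnfrsf1a at 0.22 ± 0.20. Clec7a-KO against nTg called 0 of 8 by edgeR (1 at an unadjusted p under 0.05, Tnfrsf12a at 1.02 ± 0.41, and 0 by DESeq2), beside 0% of all genes. With no filter on low counts edgeR called 2 members in the first, Tnfaip3 at 1.02 (adjusted p 0.00387) and Tnf at 0.80 (0.0207), and 1 in the second, Tnfrsf12a at 1.00 (0.0198). The interaction called 0 of 8 by edgeR (1 at an unadjusted p under 0.05, Tnfrsf12a at -1.22 ± 0.52), beside 0%; with no filter it called Tnf (1.47, adjusted p 0.0158). SOD1G93A/Clec7a-KO replicate 4 held only 35 astrocytes, where 3 UMIs correspond to 19.8 CPM. Fewer astrocytes were recovered with the transgene, 3.87% and 2.85% of cells in SOD1G93A and SOD1G93A/Clec7a-KO against 12.4% and 9.76% in nTg and Clec7a-KO.

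In OPC, 7 of the 10 genes passed the filter. With SOD1G93A against nTg, Tnf, Tnfaip3 and Tnfrsf12a rose, 3 of 7 genes beside 1.31% of all genes called higher; within the deletion Tnf and Tnfrsf1a rose, 2 of 7 beside 3.69%. The nTg libraries held 6 to 14 Tnf and 9 to 12 Tnfaip3 UMIs in OPC, so such genes pass the filter mainly through the transgene libraries, and the counts of members called in OPC, endothelial, ependymal and mural cells are not read as support. Tnfrsf12a was 9.35, 9.88 and 9.03 CPM in nTg and 27, 18.3 and 17.1 in SOD1G93A, a log2 fold change of 1.15 ± 0.24 (edgeR adjusted p 0.0173). Tnfrsf1a was 51, 41.5, 45.2 and 122 CPM in Clec7a-KO and 84.9, 122, 204 and 202 in SOD1G93A/Clec7a-KO, which overlapped, a log2 fold change of 1.24 ± 0.32 (0.0317). It was not called with SOD1G93A against nTg, although its 93.1, 114 and 107 CPM did not overlap 40.7, 59.3 and 49.2 in nTg. Tnf was 1.91 to 4.22 CPM in nTg and 11 to 34.8 in SOD1G93A (2.83 ± 0.56, edgeR adjusted p 0.0112), and 2.96 to 7.01 in Clec7a-KO and 6.53 to 38.2 in SOD1G93A/Clec7a-KO (2.05 ± 0.53, 0.0317). Tnfaip3 was 2.71 to 5.64 CPM in nTg and 5.67 to 29.4 in SOD1G93A (2.06 ± 0.49, edgeR adjusted p 0.036).

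These OPC calls were not stable. Tnfrsf12a lost its call without SOD1G93A replicate 1 (0.92, adjusted p 0.0895) and without nTg replicate 1, 2 or 3 (adjusted p 0.0846, 0.0625 and 0.103). Tnf against nTg lost it without SOD1G93A replicate 2 (2.31, adjusted p 0.0885), nTg replicate 2 (0.0557) or nTg replicate 3 (0.0945), and Tnfaip3 without SOD1G93A replicate 2 (1.15, adjusted p 0.31) or any nTg replicate (0.0596 to 0.185). With Xist above Ddx3y as a covariate all 3 lost it: Tnf (adjusted p 0.0673), Tnfaip3 (0.267) and Tnfrsf12a (0.132). Within the deletion Tnf and Tnfrsf1a both lost it without Clec7a-KO replicate 1, 2 or 3 or SOD1G93A/Clec7a-KO replicate 3 or 4, with adjusted p of 0.067 to 0.138 for Tnf (1.70 without SOD1G93A/Clec7a-KO replicate 3) and 0.0806 to 0.12 for Tnfrsf1a, and Tnf was 1.11 (0.291) without all 3 libraries that stood apart. Microglial markers summed to 102 to 171 CPM in nTg OPC and 255 to 569 in SOD1G93A OPC, where they stood at 2.28% of their microglial level. Tnf stood at 1.45% and Tnfaip3 at 2.36% of theirs, Tnfrsf12a at 44.8% and Tnfrsf1a at 105%.

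Tnf was also called in endothelial and ependymal cells, the barrier cells of vessels and of the central canal. In endothelial cells 9 genes were tested and Tnf alone rose, in both comparisons, beside 0.623% and 0.737% of all genes called higher: from 4.26, 4.4 and 2.28 CPM in nTg to 21.2, 27.7 and 16.2 in SOD1G93A (log2 fold change 2.53 ± 0.44, edgeR adjusted p 0.0119), and within the deletion by 2.43 ± 0.39 (0.00423). The first call was lost without SOD1G93A replicate 2 (adjusted p 0.0582), nTg replicate 2 (0.0623) or nTg replicate 3 (0.0938), and with Xist above Ddx3y as a covariate (0.0742). In ependymal cells 9 genes were tested and Tnf and Tnfaip3 rose in both comparisons, beside 1.01% and 1.38% of all genes called higher. Ependymal Tnfaip3 was 1.6, 2.01 and 2.9 CPM in nTg and 26.2, 15.1 and 10.4 in SOD1G93A, a log2 fold change of 2.88 ± 0.38 (edgeR adjusted p 0.000382), and within the deletion of 2.36 ± 0.35 (0.00122). Ependymal Tnf changed by 2.79 ± 0.57 (edgeR adjusted p 0.0185) and 2.77 ± 0.53 (0.0104); the first lost its call without SOD1G93A replicate 2 (0.171), nTg replicate 1 (0.138) or nTg replicate 2 (0.104) and with Xist above Ddx3y as a covariate (0.447), and the second without Clec7a-KO replicate 2 (0.0691) or SOD1G93A/Clec7a-KO replicate 2 (0.0813).

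Tnf stood at 1.66% of its microglial level in SOD1G93A endothelial cells and at 1.77% in ependymal cells, where microglial markers stood at 2.59% and 5.29% of theirs; the member was above the markers in 0 of 3 libraries in both. Microglial markers summed to 95.1 to 145 CPM in nTg and 359 to 696 in SOD1G93A endothelial cells, and to 289 to 313 and 636 to 1682 in ependymal cells. Ependymal Tnfaip3 had a mean of 17.2 CPM in SOD1G93A, against 665 in microglia of that group. The part of microglial RNA in these Tnf and Tnfaip3 differences was not tested. In mural cells 5 genes were tested, 0 were called with SOD1G93A against nTg by edgeR (1 at an unadjusted p under 0.05, 0 by DESeq2), beside 0.106% of all genes called higher, and 1 within the deletion, beside 0.891%. That gene was Tnfaip3, at 3.31, 9.87, 4.84 and 18 CPM in Clec7a-KO and 46.3, 28.6, 36.5 and 48.7 in SOD1G93A/Clec7a-KO (log2 fold change 2.22 ± 0.50, edgeR adjusted p 0.0299), each value resting on 2 to 14 UMIs. The call was lost when any of 7 single libraries was left out (Clec7a-KO replicate 1, 2 or 3, SOD1G93A/Clec7a-KO replicate 1, 3 or 4, or nTg replicate 2, with adjusted p 0.0512 to 0.123) and without all 3 libraries that stood apart (2.68, 0.13). Bcl2a1b, at 1328 CPM in SOD1G93A/Clec7a-KO microglia, went from 7.57 to 114 CPM in mural cells in the same comparison. The part of microglial RNA in mural Tnfaip3 was not tested.

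The Clec7a comparisons called no member in these 4 classes by edgeR or by DESeq2. With SOD1G93A/Clec7a-KO against SOD1G93A, 2 of 7 genes in OPC, 0 of 9 in endothelial, 1 of 9 in ependymal and 1 of 5 in mural cells had an unadjusted p under 0.05, beside 0.00755%, 0.00759%, 0.026% and 0% of all genes called. With Clec7a-KO against nTg no member had an unadjusted p under 0.05 in the 4 classes, beside 0.0151%, 0%, 0.026% and 0% of all genes called.

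The rest of the pathway was read from 5 lists; the share of all genes called was 20.1% higher and 13.5% lower in microglia with SOD1G93A against nTg, and 25.7% and 20.9% within the deletion, and a list's count near these shares is not a result about the list. In microglia, of 9 genes known to respond to Tnf that were tested, 5 rose and 0 fell with SOD1G93A against nTg (median log2 fold change 1.44, all genes 0.01), and 5 rose and 2 fell within the deletion (median 1.27). Csf1, a growth factor of microglia, was 59.8, 46.1 and 92.5 CPM in nTg and 403, 717 and 626 in SOD1G93A (3.14 ± 0.29, edgeR adjusted p 2.69e-06). The chemokine Cxcl1 was 0.655, 0.299 and 0.373 CPM in nTg, on 22, 6 and 5 UMIs, and 50.3 ± 56.6 (SD, n = 3) in SOD1G93A. There replicate 1 had 10.1, replicate 3 had 25.6 and replicate 2, far the highest, carried the mean. The log2 fold change was 6.72 ± 1.16 (edgeR adjusted p 0.000601), and with so few nTg UMIs its size is uncertain. Ptgs2, Sod2 and Bcl2a1b were the other 3, at 2.99 ± 0.65, 1.48 ± 0.19 and 1.39 ± 0.26.

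Of 25 adaptors, kinases and proteases of TNF signalling, 5 rose and 6 fell in microglia with SOD1G93A against nTg (median 0.08), and 8 rose and 7 fell within the deletion (median 0.14). Traf1, an adaptor induced by NF-kappaB, went from 3.01, 2.64 and 2.76 CPM to 8.68, 19.3 and 13.5 (2.30 ± 0.35, edgeR adjusted p 0.000218). Rhbdf2, which carries the sheddase Adam17 to the cell surface, rose by 1.29 ± 0.22, and Adam17, which cuts Tnf from the membrane, by 0.73 ± 0.18. Ripk1, Birc3 and Chuk fell by 0.58, 0.63 and 0.52 on the log2 scale, and in the comparison within the deletion by 0.69, 0.59 and 0.54, where Traf5 and Tab2 fell by 0.84 and 0.79. Of 21 NF-kappaB subunits and feedback genes, 4 rose and 0 fell (median 0.06), and within the deletion 5 rose and 1 fell (median 0.11). Tnip3, a relative of Tnip1, rose by 1.79 ± 0.36 and 1.90 ± 0.32, Otulin by 0.55 ± 0.17 and 0.90 ± 0.15, and Zfp36, whose product destabilises Tnf mRNA, fell by 0.99 on the log2 scale within the deletion (edgeR adjusted p 0.00182).

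Of 3 other ligands tested in microglia 1 rose against nTg, Tnfsf14 (1.43 ± 0.51, at 0.776 CPM in SOD1G93A and 0.277 in nTg, on 3 to 12 UMIs per library), and 0 within the deletion. Of 14 other receptors tested 1 rose and 4 fell, and within the deletion 2 rose and 4 fell (medians -0.07 and -0.61). Tnfrsf8, the receptor of Tnfsf8, was called in both; it was 0.758 CPM in SOD1G93A and 0.157 in nTg (2 to 5 UMIs per library), and 0.666 in SOD1G93A/Clec7a-KO and 0.0626 in Clec7a-KO (0 to 3 UMIs), and with so few UMIs no fold is given. Those that fell against nTg were Relt, Cd27, Tnfrsf17 and Tnfrsf13b, known from lymphocytes. Tnfrsf13b was 60.6, 63.2 and 58.9 CPM in nTg and 34.8, 30.3 and 31.3 in SOD1G93A (-0.92 ± 0.15, edgeR adjusted p 0.000395). The summed CPM of 6 B-cell markers in microglia was 165 to 228 without the transgene and 69.3 to 136 with it. This sum was not split by gene either, and the part of these markers in the receptor differences was not tested.

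In astrocytes 10 of 20 NF-kappaB and feedback genes tested rose and 1 fell with SOD1G93A against nTg (median 0.95, all genes -0.01), beside 17.2% of all genes called higher and 14.9% lower. Within the deletion 14 rose and 0 fell (median 1.42), beside 18% and 15.2%. A listed gene near 0 without the transgene passes the filter only through the transgene libraries, so these list counts are not read as support. Bcl3, an NF-kappaB cofactor, was 0, 1.22 and 1.9 CPM in nTg, on 0, 4 and 8 UMIs. It was 12.3, 20.3 and 24.5 CPM in SOD1G93A (edgeR adjusted p 2.73e-05), and with so few nTg UMIs no fold is given. Within the deletion Bcl3 was 19.6 to 39.6 CPM in SOD1G93A/Clec7a-KO, against 6, 0, 1 and 0 UMIs in the Clec7a-KO libraries, too few to give a fold. Of the 8 Tnf-responsive genes tested 6 and then 3 rose and 0 fell, and of 9 other receptors 5 and 6 rose and 2 and 1 fell. Icam1, an adhesion molecule, was 12, 6.01, 4.67 and 17 CPM in Clec7a-KO and 101, 147, 43.6 and 66 in SOD1G93A/Clec7a-KO (3.33 ± 0.37, edgeR adjusted p 3.75e-06). The dissociation genes and the microglial markers given above for astrocytes moved with these lists, and their part was not tested.

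The chemokine Ccl2 in astrocytes was the only listed gene called between the 2 transgene groups in astrocytes. It was 14.3, 152 and 365 CPM in SOD1G93A. In SOD1G93A/Clec7a-KO it was 11.8, 9.83, 6.98 and 0 CPM, on 27, 10, 4 and 0 UMIs, the last in the library with 35 astrocytes. The log2 fold change was -4.22 ± 0.68 (edgeR adjusted p 0.0448), and with so few UMIs its size is uncertain. No alternative fits are given for this call. The groups did not overlap, but SOD1G93A replicate 1 lay near the SOD1G93A/Clec7a-KO libraries. Ccl2 was 0.569, 0.305 and 0.711 CPM in nTg, on 1 to 3 UMIs. In Clec7a-KO it was 1.59, 1.5, 2.73 and 5.38 CPM, which overlapped SOD1G93A/Clec7a-KO.

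To name the genes most like each member across libraries, the group means were removed and log2(CPM + 1) in microglia was correlated over the 14 libraries with genes whose mean was at least 10 CPM (7771 to 7772 genes searched). The highest Pearson r was 0.978 for Tnf with Plau, 0.926 for Tnfsf8 with Coro2a, 0.978 for Tnfsf9 with Pabpc1, 0.911 for Ltb with Josd1 and 0.987 for Tnfsf12 with Snx17. For the receptors and inhibitors it was 0.993 for Tnfrsf1a with Phc2, 0.951 for Tnfrsf1b with Fgfr1op, 0.867 for Tnfrsf12a with Zfp655, 0.941 for Tnfaip3 with Ywhaz and 0.833 for Tnip1 with Crnkl1. Tnf and Tnfsf9 shared Ccni and Nfe2l2 among their 5 nearest genes. The points share library depth and the 3 libraries that stood apart, and no p is given.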

How the data were processed

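Single cells of whole spinal cord were profiled with 10x Chromium 3′ v3.1 chemistry after perfusion, enzymatic dissociation and myelin removal, per the labels' protocols. The authors deposited 1 matrix of raw UMI counts per library. Cell Ranger and the mm10 build are named in the submitters' processing notes, and the matrix headers give software version 3.0.2; the annotation, the cell calling rule and the strand setting are not given in the sources used here. Columns of other samples numbered 0.

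A barcode was dropped below 500 genes or 1000 UMIs (7127 barcodes) or above 15% mitochondrial UMIs (4963). Doublets were scored with Scrublet (2 simulated doublets per cell) and the top 0.8% per 1000 barcodes removed (7047 cells). Cells were clustered in scanpy 1.11.5 (2000 variable genes, 30 components, 15 neighbours, Leiden resolution 1) into 25 clusters and named from marker lists. Counts were summed per class and library with at least 20 cells and tested with edgeR 4.0.16 (quasi-likelihood, TMM, all 4 groups in 1 fit, R 4.3.3, Benjamini-Hochberg over all genes tested, adjusted p under 0.05). The SE was taken as the absolute log2 fold change over the root of the test's F statistic. CPM is relative to TMM-scaled class totals; at most 3 UMIs in a library is taken as the floor. Tests were checked on simulated data. DESeq2 1.42.0, other filters, covariates, the replicate number as a block and each library left out were alternatives. Libraries held 3096 to 12367 barcodes with medians of 5190.5 to 14886 UMIs, and in small classes the UMIs of a gene limit the precision.

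The 10 members and all marker and pathway lists were chosen with earlier results of these data known. Pathway genes were picked by a rule: among those called whose libraries did not overlap, the largest log2 fold changes, up to 5 per list and direction in microglia and up to 3 per comparison in other classes. The text names only some of the genes picked, and no values are printed for those picked in OPC, endothelial, ependymal and mural cells. Leaving out libraries 13, 15 and 16 together, and the fit with sex as a covariate, were added after seeing the data. Positions are from GENCODE vM21 on GRCm38, and promoter sequences from RefSeq (GRCm38.p6).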

Additional observations from a re-analysis of the deposited data

Results flagged for a closer look

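In groups of 4 libraries, a library was singled out where its gap to the nearest other library exceeded Dixon's 95% critical share of the group's range; 10 of 96 groups met this, where chance gives about 1 in 20. Clec7a-KO replicate 4 accounted for 7 of them. Its Tnfrsf1a was the highest of its group in microglia (207 CPM, next 101), OPC (122, next 51), endothelial cells (96.7, next 60.3) and mural cells (201, next 121). Its Tnfsf12 was highest in microglia (98.3 CPM, next 56.2) and mural cells (214, next 131), and its Tnf in mural cells (33.5 CPM, next 3.31).

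Tnfrsf12a in endothelial cells was 136 CPM in Clec7a-KO replicate 2, with the next library at 58.5. Tnfsf12 in astrocytes was 51.1 CPM in SOD1G93A/Clec7a-KO replicate 2, with the next at 33. Tnip1 in astrocytes was 0 in SOD1G93A/Clec7a-KO replicate 4, the library with 35 astrocytes, where 3 UMIs correspond to 19.8 CPM, above the nearest library's 14 CPM.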

How the results depend on the processing

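In microglia, SOD1G93A against nTg called 4 members. The range was 4 to 5 over fits without 1 library, and the count was 6 with the replicate block and 6 without the 3 libraries that stood apart. It was 7 when the submitters' library number entered as a covariate, where Tnf (1.84), Tnfsf12 (0.94) and Tnfaip3 (0.86) were also called. Every SOD1G93A library had a lower number than every nTg library. The covariate is thus poorly separable from this comparison, and no conclusion is drawn from the calls it added. SOD1G93A/Clec7a-KO against Clec7a-KO called 5, 5 to 7 with single libraries left out and 6 with the block. The other 3 microglial results stayed at 0 in each alternative run. The labels do not say what a replicate number shares, and in none of the 4 comparisons were all same-number correlations above 0.1, so the samples were not treated as paired. The correlations ran from -0.331 to 0.561 over 19 pairs, 11 of them above 0.1, among them 3 of 4 of Clec7a-KO with SOD1G93A/Clec7a-KO and all 3 of Clec7a-KO with SOD1G93A, which were not compared. The block gave 27 calls over the other 5 classes and 4 comparisons against 24 without it. There the count was 19 to 28 with single libraries left out, 27 by DESeq2, 25 without the 3 libraries that stood apart, 19 with Xist above Ddx3y as a covariate (SOD1G93A against nTg 12 to 6, its OPC calls 3 to 0) and 39 with no filter on low counts, which added 3 calls in the Clec7a comparisons, in astrocytes, where there were 0. In OPC it fell from 3 to 0 without nTg replicate 2 or 3, and in endothelial cells DESeq2 called 2 in place of 1 in both comparisons. Of the calls, 9 of 9 in microglia, 11 of 12 in astrocytes and 3 of 12 in the other 4 classes were kept in each alternative. No called value changed sign. Depth limits the classes with few cells, such as astrocytes with the transgene and mural cells.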

Other observations

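Tests were run only in named classes with at least 20 cells in each of the 14 libraries. This left out T or NK cells, border macrophages and neurons, and levels of the first 2 are given as values. The unnamed cluster had enough cells but was not tested because it had no class name. No nTg library held 20 T or NK cells. Ltb in T or NK cells was 603, 431 and 271 CPM in Clec7a-KO, 1479, 903 and 887 in SOD1G93A, and 514, 642, 435 and 412 in SOD1G93A/Clec7a-KO. All 3 SOD1G93A libraries were above all others. Microglial markers in these T or NK cells, given below, also differed between the transgene groups, and their part in the Ltb values was not tested.

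Tnf in the same cells was 91, 38.6 and 60.3 CPM in Clec7a-KO, 25.1, 84.1 and 56.2 in SOD1G93A, and 216, 386, 423 and 163 in SOD1G93A/Clec7a-KO, which was above both. Microglial markers in T or NK cells stood at 6.56% of their microglial level in SOD1G93A and at 36.3% in SOD1G93A/Clec7a-KO, and Tnf at 3.61% and 24.4%. Over all libraries microglia held Ltb at 3.56 CPM, far below T or NK cells. The part of microglial RNA in the Tnf and Ltb values of T or NK cells was not tested.

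In border macrophages, whose cluster was also led by Cd74 and H2-Aa, Tnf was 433 and 266 CPM in nTg, 101, 464, 257 and 954 in Clec7a-KO, 319, 514 and 446 in SOD1G93A, and 193, 316, 1083 and 1139 in SOD1G93A/Clec7a-KO, with all groups overlapping.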
